A study of Homo sapiens with 10 samples.

Results

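The HOX genes encode homeodomain transcription factors that give cells their position along the body axis. The deposited table of read counts held 39 of them, taken by symbol as every row named HOX, a cluster letter A to D and a number, out of 25370 gene rows. They were 11 genes of the HOXA cluster on chromosome 7, 10 of HOXB on chromosome 17, 9 of HOXC on chromosome 12 and 9 of HOXD on chromosome 2.

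HOX genes lie side by side in their clusters, and genes with the same number in different clusters are paralogs that descend from 1 ancestral gene. Genes with low numbers are used towards the head and those with high numbers towards the tail and in the genital tract, where HOXA9, HOXA10, HOXA11 and HOXA13 mark successive stretches of the Müllerian duct from oviduct to vagina. HOX proteins bind DNA together with PBX and MEIS proteins, Polycomb proteins keep unused clusters silent, MLL proteins keep used ones active, and retinoic acid turns on genes at the low-numbered end.

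The cells were PEO1, an established line from a high grade serous ovarian carcinoma that is deficient in the DNA repair protein BRCA2, and 4 veliparib-resistant clones derived from it, ABTr1, ABTr2, ABTr3 and ABTr4. Veliparib inhibits the repair enzyme PARP1. The clones had been exposed to 40 µM veliparib for 6 months and were off the drug for 4 to 5 days when RNA was collected, while the labels give no drug for the parental cells. All groups share the parental line and its medium, which held serum and insulin, and each resistant line is 1 clone, so what is particular to a clone cannot be told apart from what arose with resistance in it. Polyadenylated RNA was sequenced in 2 libraries per group, numbered 1 and 2.

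Total counts ran from 20640602 to 55488566 per library, and 1 read was worth 0.0182 to 0.0483 CPM, the count divided by library size on the usual CPM scale, with library sizes adjusted by the trimmed mean of M values (TMM). Libraries with the same number deviated together in all pairs of groups, so each comparison was also fitted with the library number as a block, and those values stand beside the results they change. The cells carried the labelled epithelial identity in part: 5 of 6 tested epithelial markers fell in the clones and PAX8 did not pass, with the 7 listed markers summing to 6322 to 9496 CPM in parental and 1965 to 2472 in clone libraries and SOX17 at 0 reads in all. Of 8 fibroblast markers 3 were tested and 0 passed, with sums of 96.4 to 178 CPM in parental and 136 to 192 in clone libraries, DCN, LUM and COL3A1 at 0 reads and THY1 at 52513 reads over all libraries. Of 6 leukocyte markers 3 were tested and CD68 rose (log2 fold change 1.55, edgeR adjusted p = 0.00646), with sums of 40.8 to 53.7 and 73.1 to 146 CPM and PTPRC at 21 reads. The endothelial list had 1 lower of 4 tested (15.5 to 62.4 and 2.01 to 16.3 CPM), and the mesothelial list 1 higher and 1 lower of 5 (88.7 to 222 and 48.0 to 194 CPM). The part of these markers in the HOX results was not tested.

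Most HOX message in these cells came from HOXB. Levels per transcript length are given as RPKM, which is CPM divided by exon length in kilobases. HOXB genes made up 81.2% to 90.9% of the summed HOX RPKM over the 10 libraries, HOXA 3.28% to 7.19%, HOXC 3.71% to 9.36% and HOXD 2.12% to 5.96%. The order of mean RPKM in parental PEO1 began with HOXB2 at 54.5, HOXB7 at 26.2, HOXB4 at 19.4, HOXB3 at 15.8, HOXB9 at 9.39 and HOXB6 at 8.92, and the first 6 places were held by the same genes in the same order in the clones. Neighbours in that order were often within the spread of 2 libraries: HOXB4 was 15.4 and 23.4 RPKM and HOXB3 15.2 and 16.3 RPKM in the parental libraries.

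Below these, the order differed between parental cells and clones. HOXB8 went from place 12 at 1.86 RPKM in parental cells to place 7 at 10.3 RPKM in the clone mean, and HOXA5 from place 19 to place 12. In the other direction, HOXC9 went from place 7 at 4.26 RPKM to place 13 at 1.76 RPKM, HOXA3 from 11 to 20 and HOXC10 from 14 to 26. The oviduct gene HOXA9 had 50 reads over all libraries and HOXA11 had 4, while HOXA10 stood at 2.08 RPKM in parental cells and 2.59 in the clones. The HOXA9 count may be too low, since 72.6% of its exons overlap another row of the table.

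**Figure D1:**
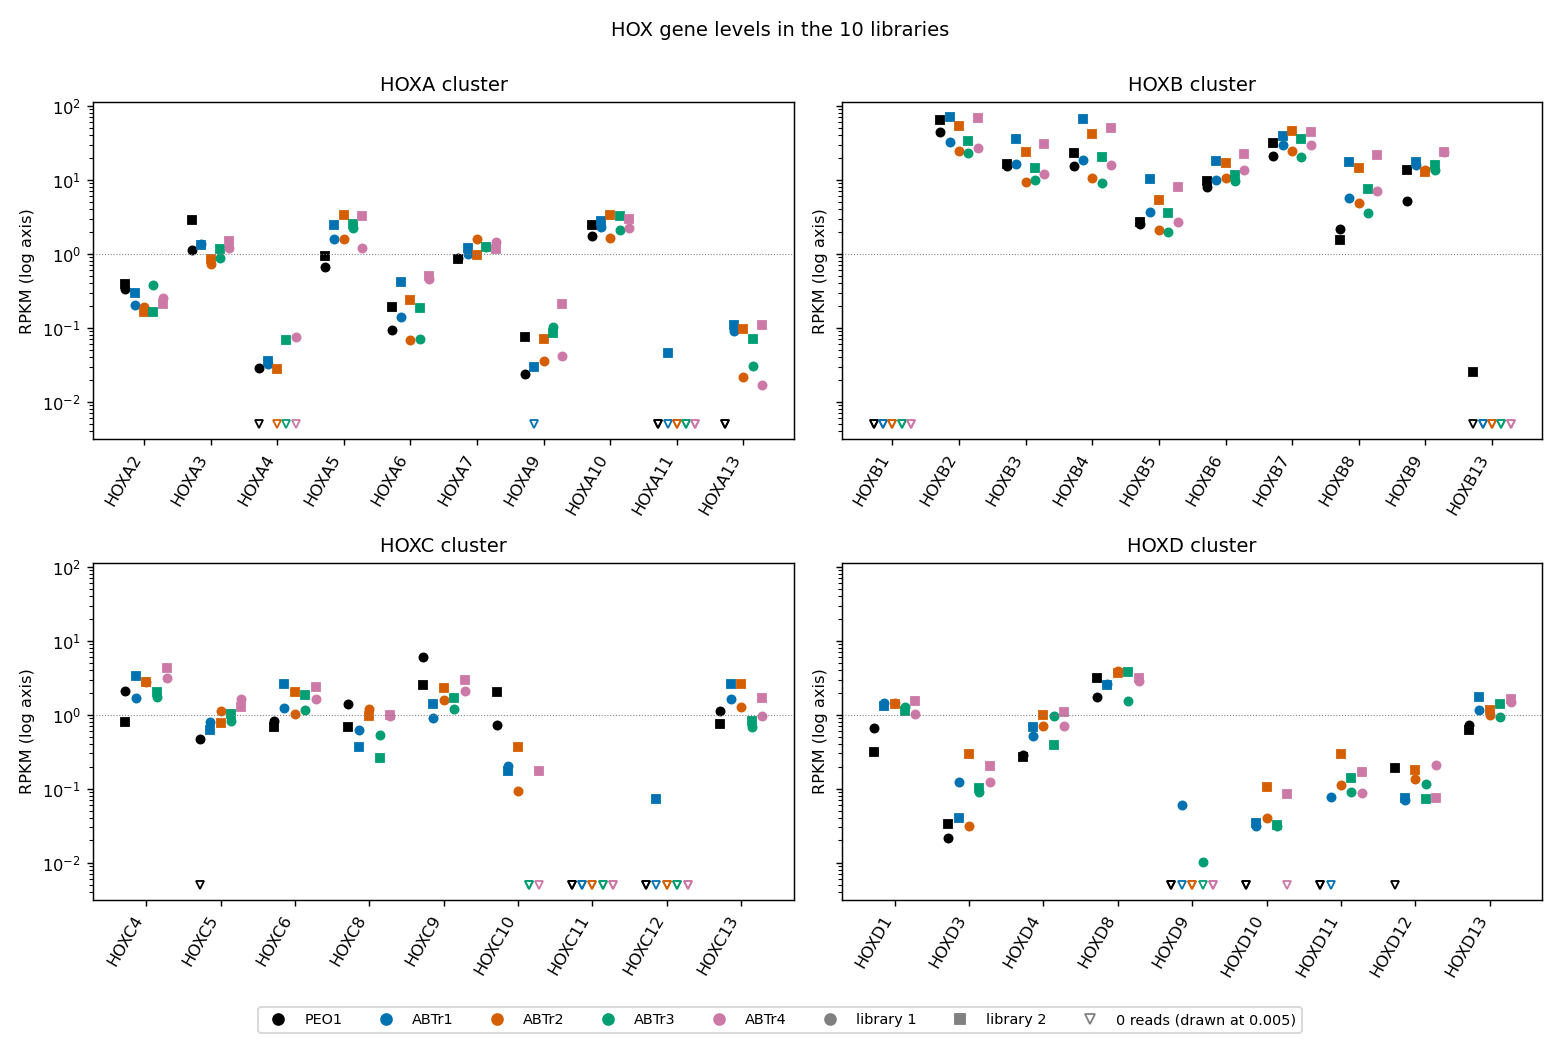
Level of the HOX genes in each library, in RPKM on a log axis, by cluster and paralog number. Circles are libraries numbered 1, squares libraries numbered 2, colours the 5 groups, and open triangles mark 0 reads. Only HOXB2, HOXB3, HOXB4 and HOXB7 stay above 9 RPKM in all 10 libraries.

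Of the 39 genes, 27 had enough reads for the test (7 HOXA, 8 HOXB, 7 HOXC and 5 HOXD), among 16490 genes tested in all. The cutoff lay at 0.301 CPM, here without the TMM adjustment, which 23 of the 27 reached in both parental libraries. HOXA6, HOXC5, HOXD3 and HOXD4 did not, so a passing level in the clones was what brought them into the test. The 12 left out were HOXA4, HOXA9, HOXA11, HOXA13, HOXB1, HOXB13, HOXC11, HOXC12, HOXD9, HOXD10, HOXD11 and HOXD12, with at most 50 reads each over all libraries. HOXB1 and HOXC11 had 0 reads, which allows at most 3 reads of the same total, and such limits cover counting error only.

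The comparison of the 4 clones with the cells they came from asks what the resistant clones share. All 4 also share the long exposure to veliparib, its withdrawal and the cloning, which cannot be told apart from resistance here. In the mean of the clones HOXC10 and HOXC9 fell and HOXD1 rose, and these 3 of 27 (11.1%) passed an adjusted p under 0.05 in the quasi-likelihood test of edgeR, against 16% of all tested genes (7.17% higher and 8.79% lower). With the library number as a block 10 of 27 (37%) passed, 8 higher and 2 lower, against 34.6% of all genes (16.3% higher and 18.2% lower). At an unadjusted p under 0.05 there were 10 and 13, but the share of all genes at that threshold was not counted. Both shares of HOX genes called lay near or below those of the whole table. Leaving out 1 library gave 1 call without ABTr1 library 2, either ABTr3 library or ABTr4 library 2, and 2 to 4 otherwise.

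The direction of the values leaned upwards. The median log2 fold change was 0.64 over the 27 genes (0.56 with the block) and 0.02 over all tested genes, and 21 of 27 values were above 0 against 51.3% of all genes. All 8 clone libraries lay above both parental libraries for 8 of the 27 (29.6%, against 14.5% of all genes), namely HOXA5, HOXA7, HOXB8, HOXC5, HOXC6, HOXD1, HOXD4 and HOXD13. All 8 lay below both for HOXC10 alone (3.7%, against 12.5%). When each clone library was set against the parental library of its own number, 11 of 27 (40.7%, against 21%) were higher in all 8, the same 8 genes with HOXB6 and HOXD3 among the others. These counts hold the 4 genes that entered the test through the clones. Over the 23 others the median was 0.49, 17 values were above 0, and 6 had all 8 clone libraries above both parental ones. Of these 23, 3 were called without and 9 with the block. The shares of all genes were not recounted in this way, so they are no matched background for the 23.

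**Figure D2:**
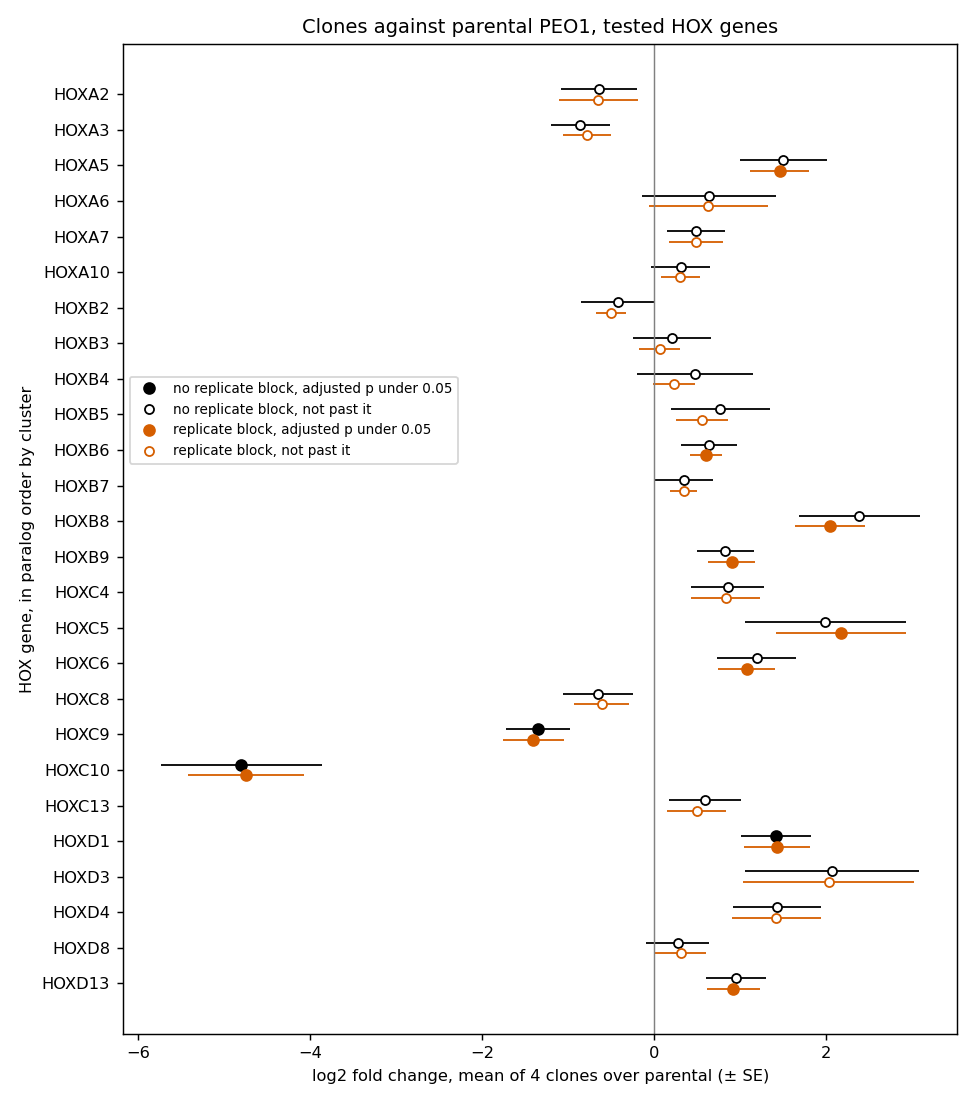
Log2 fold change of the mean of the 4 clones over parental PEO1 with its SE, for tested HOX genes in paralog order by cluster. Black is the fit without and orange the fit with the library number as a block, and filled points passed an adjusted p under 0.05. HOXC10 stands farthest to the left at -4.80 and 3 points are filled in black.

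HOXC10, a high-numbered gene (chr12:54378946-54384062, plus strand, hg19), showed the largest difference among the tested HOX genes. Its level was 1.41 and 3.95 CPM in parental libraries 1 and 2 1 and 2, at 0.396 and 0.338 in ABTr1, at 0.182 and 0.725 in ABTr2, at 0 and 0 in ABTr3 and at 0 and 0.339 in ABTr4. Every clone library was below both parental ones, and the parental libraries themselves differed 2.79-fold. The fitted log2 fold change came to -4.80 (SE 0.94) at an edgeR adjusted p of 0.014 and -4.75 with the block (SE 0.67, adjusted p = 7.86e-04).

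That fitted size depends on the libraries with no reads, so pooled counts are given beside it. HOXC10 had 159 reads in parental and 61 in clone libraries, a pooled level 12.2-fold lower in the clones (95% counting interval 9.0 to 16.6). That interval leaves out the spread between libraries and between clones. By clone it was 6.52-fold lower in ABTr1, 7.28-fold in ABTr2 and 17.2-fold in ABTr4. In ABTr3 it was at least 68.95-fold lower, taking 3 reads over both libraries as the limit for 0. The mean log2 ratio over the clones with ABTr3 at its bound was -3.95. Without parental library 2 the fitted value was -3.89 and the call was lost (edgeR adjusted p = 0.121).

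HOXC9, the neighbour of HOXC10 (chr12:54393877-54397120, plus strand, hg19), fell as well. Its level was 9.27 and 3.87 CPM in parental libraries 1 and 2, 1.39 and 2.18 in ABTr1, 2.45 and 3.53 in ABTr2, 1.82 and 2.57 in ABTr3 and 3.21 and 4.56 in ABTr4. The groups overlapped, since ABTr4 library 2 was above parental library 2. The log2 fold change came to -1.34 (SE 0.37) at an edgeR adjusted p of 0.0421 and -1.40 with the block (adjusted p = 0.0122). Without parental library 1, the highest of all, it was -0.62 (adjusted p = 0.412), and of the 10 fits that each left out 1 library only those without ABTr2 library 2 or parental library 2 kept the call.

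HOXD1, a low-numbered gene at the end of the HOXD cluster (chr2:177053307-177055635, plus strand, hg19), was the 1 HOX gene that rose. Its level was 1.31 and 0.619 CPM in parental libraries 1 and 2, 2.86 and 2.58 in ABTr1, 2.87 and 2.80 in ABTr2, 2.51 and 2.25 in ABTr3 and 2.00 and 3.05 in ABTr4. The groups did not overlap, the lowest clone library (ABTr4 library 1) being above the higher parental one. The log2 fold change came to 1.41 (SE 0.41) at an edgeR adjusted p of 0.0474 and 1.42 with the block (adjusted p = 0.0167). Leaving out any 1 library other than parental library 1 lost the call, with a value of 0.98 and an adjusted p of 0.24 without parental library 2.

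HOXB8 (chr17:46689708-46692301, minus strand, hg19) had the largest positive difference of the HOX genes in the fit without the block, where it narrowly missed the threshold. Its level was 3.94 and 2.82 CPM in parental libraries 1 and 2, 10.5 and 31.9 in ABTr1, 9.01 and 26.2 in ABTr2, 6.47 and 13.7 in ABTr3 and 12.8 and 40.0 in ABTr4. No clone library reached down to the parental ones, and in each clone library 2 was the higher. The log2 fold change came to 2.38 (SE 0.70) at an edgeR adjusted p of 0.0515 and 2.05 with the block (SE 0.40, adjusted p = 0.0035). Pooled, its level was 4.75-fold higher in the clones (95% counting interval 4.17 to 5.44, which leaves out the spread between libraries and between clones).

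A further 6 genes were called only with the block. HOXA5 measured 1.09 and 1.55 CPM in parental libraries 1 and 2 and between 1.98 and 5.56 in the clones, with no overlap (1.50, edgeR adjusted p = 0.0803, against 1.46 and 0.00868 with the block). HOXC6 stood at 1.83 and 1.55 CPM and between 2.31 and 5.94, again with no overlap (1.19 and 0.116, against 1.08 and 0.0304 with the block). HOXD13, at the far end of HOXD, stood at 1.69 and 1.43 CPM and between 2.14 and 4.06 (0.95 and 0.098, against 0.92 and 0.0414 with the block). Each of these genes was thus higher in all 8 clone libraries.

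The other 3 were less even. HOXB9 measured 13.8 and 36.9 CPM in parental libraries 1 and 2 and between 34.2 and 65.2 in the clones, so parental library 2 overlapped the clones (0.83 and 0.127, against 0.90 and 0.0275 with the block). HOXB6 stood at 13.6 and 16.3 CPM and between 16.1 and 36.9, with ABTr3 library 1 inside the parental range (0.64 and 0.217, against 0.60 and 0.0293 with the block). HOXC5 had 1.02 CPM in parental library 1 and 0 reads in library 2, against 1.35 to 3.51 CPM in the clones (1.99 and 0.187, against 2.17 and 0.0469 with the block). Its fitted value was 9.30 without parental library 1, where the parental level was 0, and 1.06 without library 2.

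**Figure D3:**
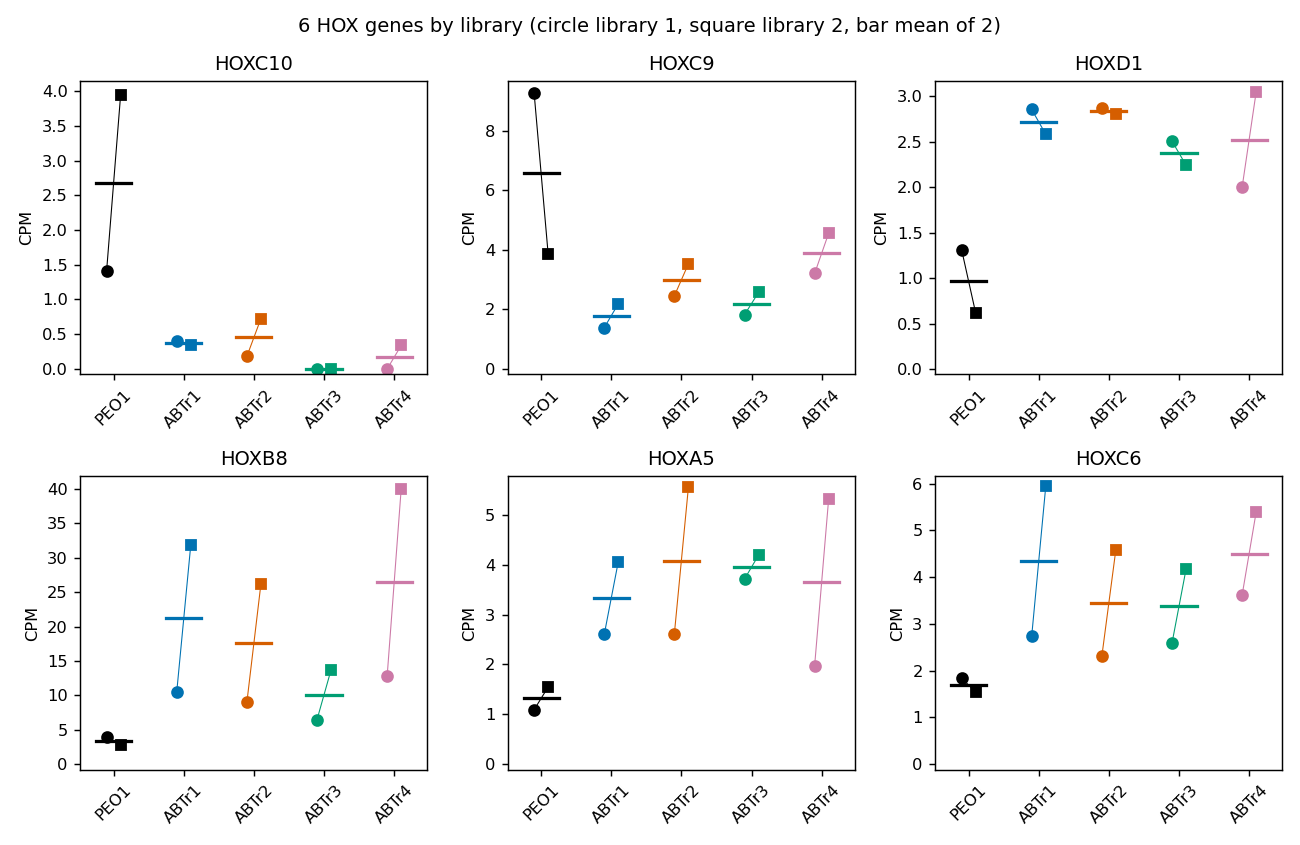
CPM of HOXC10, HOXC9, HOXD1, HOXB8, HOXA5 and HOXC6 in each library of the 5 groups, on linear axes of their own; circles are libraries 1, squares libraries 2, and bars the mean of both. The clone libraries of HOXC10 lie under 0.8 CPM and those of HOXB8 over 6 CPM.

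By cluster, HOXA and HOXB had no call without the block (0 of 7 and 0 of 8, medians 0.49 and 0.56), HOXC had 2 lower of 7 (median 0.59) and HOXD 1 higher of 5 (median 1.41). With the block there were 1 higher in HOXA, 3 higher in HOXB, 2 higher and 2 lower in HOXC and 2 higher in HOXD. Of all tested genes 7.17% were higher and 8.79% lower without the block, and 16.3% and 18.2% with it. The medians of HOXA, HOXC and HOXD hold HOXA6, HOXC5, HOXD3 and HOXD4, which entered the test through the clones. Within HOXC the values changed sign along the chromosome. HOXC4, HOXC5 and HOXC6 had log2 fold changes of 0.86, 1.99 and 1.19, HOXC8, HOXC9 and HOXC10 had -0.65, -1.34 and -4.80, and HOXC13 had 0.59. Of these, HOXC4, HOXC8 and HOXC13 passed in neither fit.

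By paralog number, genes 1 to 3 had 1 higher of 7 tested (median 0.21), genes 4 to 8 had 0 called of 14 (median 0.71) and genes 9 to 13 had 2 lower of 6 (median 0.45). Of all tested genes 7.17% were higher and 8.79% lower. With the block, 5 of the 14 genes numbered 4 to 8 were higher and none lower, against 16.3% and 18.2% of all tested genes. Genes 1 to 3 then had 1 higher, and genes 9 to 13 had 2 higher and 2 lower. HOXD3, HOXA6, HOXD4 and HOXC5, which is 1 of the 5, entered the test through the clones. HOXA2 and HOXA3, which pattern the hindbrain and pharyngeal region, had -0.64 and -0.86, with edgeR adjusted p values of 0.366 and 0.126. HOXA3 measured 3.97 and 9.87 CPM in parental libraries 1 and 2 and between 2.51 and 5.11 in the clones, an overlap set by parental library 1. Among the remaining tested genes HOXA6, HOXA7, HOXA10, HOXB2, HOXB3, HOXB4, HOXB5, HOXB7, HOXD3, HOXD4 and HOXD8 ran from -0.42 (HOXB2) to 2.07 (HOXD3) and passed in neither fit.

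Among the 12 genes too low to test, 6 had reads only in the clones, and 3 of them more than 20 reads. The clones had more libraries and more reads in total, and the share of all low rows with reads only in clones was not counted. HOXA13 had 46 clone reads in all 8 libraries, HOXD11 had 50 in 7 and HOXD10 had 22 in 7, against 0 in the parental libraries. The clone level was at least 3.29-fold higher for HOXA13, 3.57-fold for HOXD11 and 1.57-fold for HOXD10, with 3 reads over both parental libraries as the limit. Without a filter on low counts their edgeR adjusted p values were 0.0922, 0.0977 and 0.27. HOXA9 had 6 parental and 44 clone reads, a pooled ratio of 1.57 (95% counting interval 0.668 to 4.52), and HOXD12 4 and 30. HOXD9, HOXA11 and HOXC12 had 5, 4 and 2 reads, all in clones, HOXA4 had 17, and HOXB13 had 2, both parental. The pooled clone levels of HOXD9 (0.0162 CPM), HOXA11 (0.013) and HOXC12 (0.00648) lay below the parental limit of 0.0453 CPM, so no rise is shown for them. Between 31 and 34 HOX genes had a read in a clone library and 29 in each parental one.

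The starts of genes whose values were higher in all 8 clone libraries are shown, although HOXA7 and HOXD4 among them passed in neither fit. RefSeq (GRCh38.p14) gave a window of 300 bases, from 250 before to 50 after the start, for 5 of those 8. There was none for HOXA5, HOXB8 and HOXC6. The windows were HOXA7 at chr7:27156626-27156925 (minus strand), HOXC5 at chr12:54016638-54016937 (plus), HOXD1 at chr2:176188418-176188717 (plus), HOXD4 at chr2:176151300-176151599 (plus) and HOXD13 at chr2:176092471-176092770 (plus), printed 5′ to 3′ with CG dinucleotides, where DNA can be methylated, in capitals.
HOXA7: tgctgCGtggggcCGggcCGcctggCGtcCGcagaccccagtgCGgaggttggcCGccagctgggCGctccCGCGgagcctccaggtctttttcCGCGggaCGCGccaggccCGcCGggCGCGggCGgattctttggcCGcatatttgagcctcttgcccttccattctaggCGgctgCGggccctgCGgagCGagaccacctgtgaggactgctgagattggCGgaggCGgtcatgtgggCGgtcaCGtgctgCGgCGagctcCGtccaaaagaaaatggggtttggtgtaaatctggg
HOXC5: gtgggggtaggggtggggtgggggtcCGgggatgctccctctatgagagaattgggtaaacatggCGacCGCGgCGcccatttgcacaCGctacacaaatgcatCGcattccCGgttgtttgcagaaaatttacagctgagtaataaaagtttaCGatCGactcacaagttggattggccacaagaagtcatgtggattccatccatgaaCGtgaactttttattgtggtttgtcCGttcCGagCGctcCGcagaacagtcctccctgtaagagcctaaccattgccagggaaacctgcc
HOXD1: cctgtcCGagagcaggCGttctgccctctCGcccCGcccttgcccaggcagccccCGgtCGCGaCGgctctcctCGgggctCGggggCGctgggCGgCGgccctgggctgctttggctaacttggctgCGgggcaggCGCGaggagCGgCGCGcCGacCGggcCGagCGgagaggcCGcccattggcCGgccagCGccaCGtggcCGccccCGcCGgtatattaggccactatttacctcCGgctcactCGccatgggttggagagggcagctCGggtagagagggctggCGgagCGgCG
HOXD4: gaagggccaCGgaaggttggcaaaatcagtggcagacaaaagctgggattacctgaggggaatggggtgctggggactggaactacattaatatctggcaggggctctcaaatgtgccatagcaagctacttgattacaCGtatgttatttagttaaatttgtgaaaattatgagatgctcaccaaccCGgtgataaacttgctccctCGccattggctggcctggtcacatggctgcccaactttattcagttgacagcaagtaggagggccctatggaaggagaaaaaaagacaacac
HOXD13: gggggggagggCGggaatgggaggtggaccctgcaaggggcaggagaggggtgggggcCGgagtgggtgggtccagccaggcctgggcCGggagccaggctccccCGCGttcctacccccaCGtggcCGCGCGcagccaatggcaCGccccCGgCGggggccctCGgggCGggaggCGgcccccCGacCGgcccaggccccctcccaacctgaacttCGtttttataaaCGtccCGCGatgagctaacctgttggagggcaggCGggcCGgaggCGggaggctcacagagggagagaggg

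HOXD1 had 36 CG dinucleotides in its window, HOXA7 31, HOXD13 24, HOXC5 15 and HOXD4 4, so both CG-rich and CG-poor starts were among them. Over the 20 HOX genes with a window the median was 22.5, against 14 over 27305 symbols. The window of HOXC5 is also the one listed for HOXC4. Searched on both strands with any overlap between motifs allowed, the PBX-HOX motif TGATTNAT occurred in HOXA2 and HOXD11 (10% of the 20, against 2.94% of all symbols), and the caudal motif TTTATNG in HOXA9, HOXA10, HOXC4, HOXC5 and HOXD8 (25%, against 10.1%). The E-box CAGGTG occurred in HOXA7 (5%, against 20.6%), and the TATA motif TATAAA in HOXA3, HOXA9, HOXA10 and HOXD13 (20%, against 12%). Such a match describes the letters only.

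Each clone was next set against the parental cells, and these 4 comparisons share the parental libraries. Without the block, ABTr1, ABTr2 and ABTr4 had 0 HOX genes called, against 9.77%, 6.11% and 9.71% of all tested genes. At an unadjusted p under 0.05 in edgeR they had 6, 5 and 11, and DESeq2 called 4, 4 and 6. The shares of all genes for the unadjusted and the DESeq2 counts are not given here. ABTr3 had 1, HOXC10, against 7.37% of all genes (edgeR adjusted p = 0.0389), and 0 when any library of ABTr1 or ABTr3 was left out. With the block the counts were 6 in ABTr1, 4 in ABTr2, 5 in ABTr3 and 9 in ABTr4. The 5 higher and 1 lower in ABTr1 (22.2% of 27) stood against 15.5% and 14.5% of all genes (30.1% together), and the 3 higher and 1 lower in ABTr2 (14.8%) against 11.3% and 10.8% (22.1%). In ABTr3 1 was higher and 4 lower (18.5%), against 11% and 11.6% (22.6%), and in ABTr4 8 were higher and 1 lower (33.3%), against 13.1% and 13.9% (27%). Lower calls thus outnumbered higher ones in ABTr3 and the reverse held in the other 3 clones, a contrast that was not itself tested.

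HOXA5 was called higher in each of the 4 clones with the block, at log2 fold changes of 1.32, 1.55, 1.62 and 1.35 in ABTr1 to ABTr4. HOXB8 and HOXD1 were called in ABTr1, ABTr2 and ABTr4, HOXB8 at 2.28, 2.02 and 2.59 and HOXD1 at 1.48, 1.54 and 1.38. HOXC6 was called in ABTr1 and ABTr4, HOXB5 in ABTr1 and HOXB6, HOXB9, HOXC5 and HOXD13 in ABTr4. The lower calls were HOXC9 in ABTr1 and ABTr3, HOXA3 in ABTr2, HOXC10 in ABTr3 and ABTr4, and HOXB2 (-0.92) and HOXC8 (-1.40) in ABTr3. A call in 1 clone and not in another is no test of a difference between them.

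**Figure D4:**
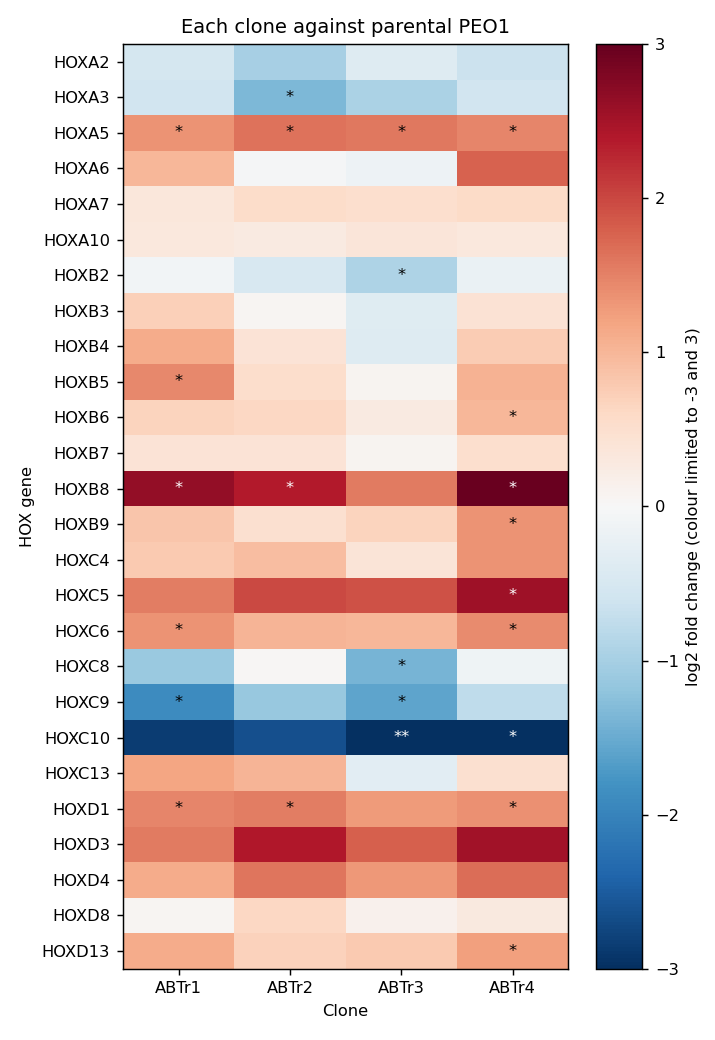
Log2 fold change of each clone over parental PEO1 for tested HOX genes, from the fit without the block, with the colour limited to -3 and 3. One asterisk marks a call at an adjusted p under 0.05 with the block only, and a double asterisk a call without it, which HOXC10 in ABTr3 has. The HOXC10 row is blue and the HOXB8 row red in all 4 clones.

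The difference among clones was tested directly. No HOX gene passed the test for any difference among the 4 clones, without the block (0.00606% of all genes called) or with it (0.843%), nor did any by DESeq2. At an unadjusted p under 0.05 edgeR counted 0 without and 7 with the block. Here and below, the share of all genes at that threshold was not counted. Set against the mean of the other 3, no clone had a HOX gene called in either fit, against 0.0121% of all genes in ABTr1 and 0% in the other 3 clones without the block. With it the whole-table shares were 2.97% (ABTr1), 0% (ABTr2), 0.206% (ABTr3) and 0.546% (ABTr4), and 6, 2, 10 and 4 HOX genes had an unadjusted p under 0.05.

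ABTr3 had the lowest mean of the clones for each tested HOXB gene other than HOXB9, which was lowest in ABTr2. Its median log2 difference from the other 3 clones was -0.72 over the 8 tested HOXB genes (-0.62 with the block), against 0.02 over all genes. The 2 ABTr3 libraries summed to 183 and 280 CPM over HOXB, against 265 and 559 in ABTr1, 195 and 415 in ABTr2 and 265 and 537 in ABTr4, and 222 and 314 in parental cells. Of the 8 genes, 7 had an unadjusted p under 0.05 with the block, and the smallest adjusted p was that of HOXB4 (-1.01, edgeR adjusted p = 0.153), so none passed.

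Library number moved with the HOXB values. In every clone library 2 held more HOXB4 than library 1, 134 against 37.4 CPM in ABTr1, 83.6 against 21.5 in ABTr2, 41.5 against 18.6 in ABTr3 and 101 against 32.1 in ABTr4. The parental libraries had 47.5 and 31.2 CPM. The ratio of library 2 to library 1 was 1.52 in parental cells and 2.23 to 3.88 in the clones for HOXB4, 1.05 and 1.81 to 2.96 for HOXB5, and 1.07 and 1.43 to 2.52 for HOXB3. HOXB8 had a ratio of 0.716 in parental cells and 2.12 to 3.12 in the clones.

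The same did not hold along the whole cluster. HOXB9 had a ratio of 2.67 in parental cells and 0.934 to 1.19 in the clones, and HOXB7 1.52 and 1.33 to 1.85. The spread of HOXB4 between libraries of 1 clone was as large as any difference between groups, and its log2 fold change was 0.48 without the block (SE 0.67) and 0.23 with it (SE 0.24). HOXB2 had -0.42 (SE 0.43) without and -0.50 (SE 0.18, edgeR adjusted p = 0.052) with the block. What the library numbers stand for is not given in the labels, and its part in these values was not tested. Library 1 had the larger total count in every group, so library number and depth cannot be told apart here.

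**Figure D5:**
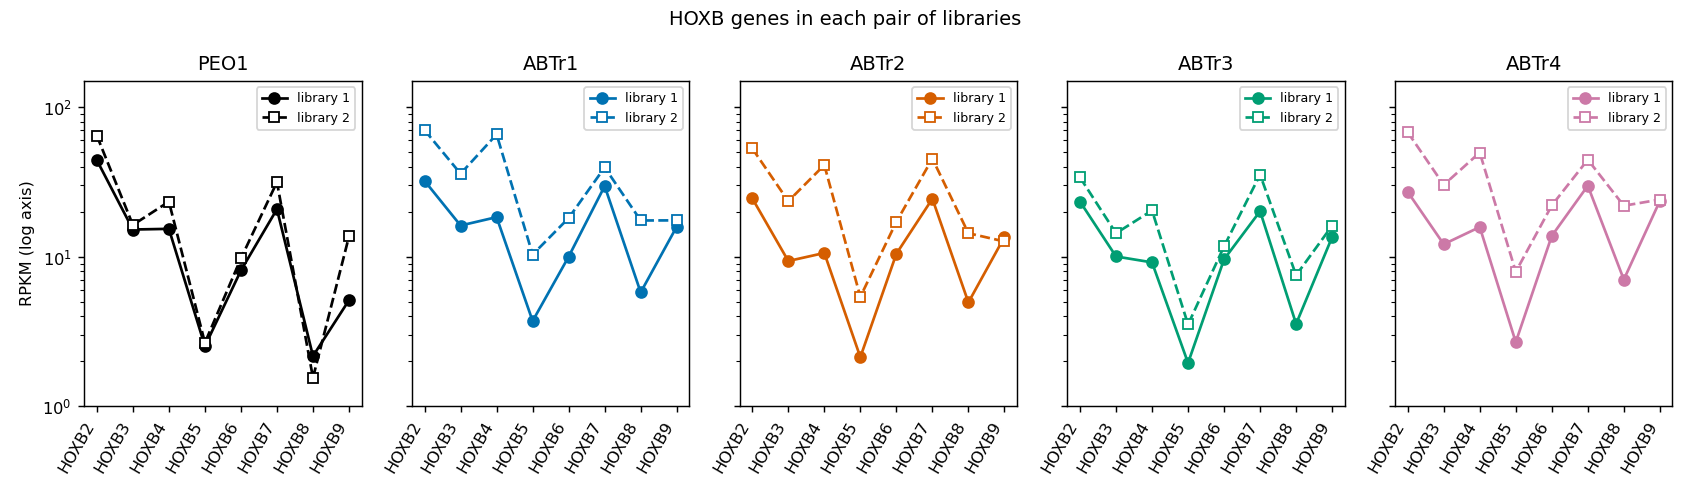
RPKM on a log axis of the 8 tested HOXB genes in each pair of libraries, 1 panel per group. Filled circles are libraries 1 and open squares libraries 2; the lines lie close together in parental PEO1 for HOXB3 and HOXB5 and apart in the clones.

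Some rows share sequence with other rows of the table. Exons of 13 of the 39 HOX genes overlap those of another gene, 5 on the same strand and 9 on the other strand. The TruSeq RNA Library Prep Kit v2 named in the labels does not mark strand, so reads in an antisense overlap cannot be assigned. HOXC4, HOXC5 and HOXC6 share 563 of their 2346, 2175 and 2244 exonic bases, and their counts are uncertain in that part. HOXA9 shares 72.6% of its exons with the HOXA10-HOXA9 read-through, which had 0 reads. All 2110 exonic bases of the read-through lie in HOXA9 (1494) or HOXA10 (616). Its 0 reads therefore do not show that it was absent. With 27.4% of its exons free of overlap, the count of HOXA9 is uncertain and may be too low. HOXA10 has 61.6% free. HOXA7 overlaps HOXA-AS3 over 74.6% of its exons, which leaves 25.4% free. The 904 reads of HOXA7 and the 32 of HOXA-AS3 are thus also uncertain and may be too low. The overlap of HOXC10 with HOXC-AS3 was 2.2%, while HOXC9, HOXB8 and HOXA5 had none. That of HOXD1 with HAGLR was 7.3%, but HAGLR had 16764 reads against 869 of HOXD1. How far reads of HAGLR entered the HOXD1 count was not tested.

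Of 20 noncoding RNAs listed in the clusters 8 were tested, and HAGLR, which overlaps HOXD1 on the other strand, rose. None fell, against 7.17% higher and 8.79% lower of all tested genes. With the block 2 were higher and 1 lower, against 16.3% and 18.2%. HAGLR measured 19.2 and 30.9 CPM in parental libraries 1 and 2 and between 35.0 and 60.8 in the clones, without overlap (log2 fold change 1.00, SE 0.25, edgeR adjusted p = 0.031). HOXC13-AS had -2.38 (adjusted p = 0.062) and passed with the block (-2.69, adjusted p = 3.49e-04), and HOXB-AS3 had 1.71 (adjusted p = 0.111, and 0.0317 with the block). HOXA10-AS had -1.08 and passed in neither fit. HOTAIR, transcribed from within HOXC, had 14 reads in all.

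Of the PBX and MEIS partners of HOX proteins, 2 of 7 tested fell and none rose, against 8.79% lower of all tested genes. MEIS2, which binds DNA beside HOX proteins, measured 15.9 and 17.9 CPM in parental libraries 1 and 2 and no less than 7.81 in the clones, all of whose libraries were below both (log2 fold change -0.70, SE 0.20, edgeR adjusted p = 0.0423). MEIS3 had 1.58 (adjusted p = 0.191, and 0.0274 with the block) and PKNOX1 had 0.43 (adjusted p = 0.201). The list's median was 0.06, against 0.02 over all genes.

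Of 27 Polycomb genes, PHC2 and CBX2 rose and none fell, against 7.17% higher and 8.79% lower of all tested genes. PHC2, a subunit of the Polycomb repressive complex that holds chromatin together, had 1.11 (edgeR adjusted p = 0.0107), and CBX2, which reads the Polycomb histone mark, had 1.47 (adjusted p = 0.032). PCGF5 had -0.77 (adjusted p = 0.0566) and PHF1 0.78 (adjusted p = 0.0605), and both passed with the block, which called 4 higher and 2 lower (16.3% and 18.2% of all genes). The list's median was -0.06. Of 13 genes of MLL complexes and histone demethylases 1 fell, the methyltransferase KMT2D (-1.20, adjusted p = 0.042), against 8.79% of all genes, and with the block 6 did, against 18.2%. KMT2C, KMT2B and KMT2A had -0.97, -0.78 and -0.63 and were among those 6.

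Of 13 tested genes of the retinoic acid pathway 2 rose and 2 fell, against 7.17% and 8.79% of all genes (5 and 4 with the block, against 16.3% and 18.2%). CYP26B1, which breaks retinoic acid down, had 2.10 (edgeR adjusted p = 0.00734), and STRA6, which takes up its precursor, had 3.85 (adjusted p = 0.0457). The receptor RARG had -1.56 (adjusted p = 0.0152), and ALDH1A3, which makes retinoic acid, had -0.89 (adjusted p = 0.0375). Of the 8 caudal, ParaHox and EVX genes, regulators and relatives of the clusters, PDX1 alone was tested and did not pass (0.22).

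The genes next to the clusters were counted too, 5 on each side, against the same 16% of all genes called and 34.6% with the block. Around HOXA 2 of 6 tested rose, SNX10 (1.65, edgeR adjusted p = 0.0145) and LOC441204, which had 0 parental and 156 clone reads. Around HOXB 0 of 9 passed, around HOXC 1 of 6 rose, LOC400043 (1.68, adjusted p = 0.0412), and around HOXD 1 of 7, LINC01116 (1.09, adjusted p = 0.0298). With the block the calls were 2 higher and 1 lower around HOXA, 1 higher around HOXB, 1 higher and 1 lower around HOXC, and 2 higher and 1 lower around HOXD. The medians around the 4 clusters were 0.29, 0.22, -0.10 and 0.14, against 0.49, 0.56, 0.59 and 1.41 for the tested HOX genes inside them. The HOXA, HOXC and HOXD medians hold HOXA6, HOXC5, HOXD3 and HOXD4, which entered the test through the clones. The median around HOXA likewise holds LOC441204. How far the filter set these differences was not tested.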

How the data were processed

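Read counts per gene were deposited by the authors as 1 table and used as given. Per the submitters' processing notes, TopHat2 2.0.14, featureCounts 1.4.6 of the Subread package and hg19 were used, and the labels name the TruSeq RNA Library Prep Kit v2 and polyadenylated RNA. How strand and multiply matching reads were handled is not given in the sources used here. The descriptions number the clones differently from the library names, and the names were used. The design text speaks of independent experiments and of more samples than are analysed here, but nothing ties the library numbers to experiments or says that the 2 libraries of a group came from separate cultures. The p-values therefore reflect a spread between libraries that may be technical.

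The HOX genes and gene lists were chosen with earlier results of these data known, the lists from general knowledge. All HOX rows are in the counts, and some genes that fall under the naming rule are not reported here by name or in the figures. Named in full are the called ones, those called with the block and, from each other list, up to 4 with the smallest adjusted p. Genes were filtered by group with filterByExpr of edgeR 4.0.16 (16490 kept) and fitted over all 10 libraries with TMM factors, group means and the quasi-likelihood test (5 residual degrees of freedom), with Benjamini-Hochberg adjustment over all kept genes and a call at an adjusted p under 0.05. RPKM used the table's exon lengths. Deviations of same-numbered libraries from group means correlated at 0.28 to 0.731 over 10 pairs of groups, all above 0.1, so the numbers were taken as paired and a block was fitted (4 residual degrees of freedom, biological coefficient of variation 0.234 against 0.368). Alternatives were this block, RLE factors, DESeq2 1.42.0, limma-voom (limma 3.58.1), no filter, only the compared groups, the clone as the unit and each library left out. The fit without the block was also run on simulated libraries that held no effect of library number, with genes of low level left unchanged. That run therefore does not cover the shared deviations of same-numbered libraries or the lowest HOX genes. Bounds for 0 reads use 3 reads over a group, and counting intervals are exact binomial at 95%, both covering counting error only. Scripts ran in R 4.3.3 and Python 3.11.15, and an SE beside a fold change is that of the fitted contrast.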

Additional observations from a re-analysis of the deposited data

Results flagged for a closer look

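HOXA13, HOXD10 and HOXD11 were too low for the test and gave reads in the clone libraries while both parental libraries had 0. HOXA13 had 46 reads in the clones, HOXD11 had 50 and HOXD10 had 22. How many other low rows of the table had reads only in clones was not counted. The clones had more libraries and more reads in total than the parental cells, and the parental limit of 3 reads over 2 libraries corresponds to 0.0453 CPM, against pooled clone levels of 0.149, 0.162 and 0.0713 CPM.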

How the results depend on the processing

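The count of HOX genes called in the mean of the clones, 3, was 10 with the replicate block and with DESeq2, 6 with the clone as the unit, 2 with limma-voom, 3 with RLE factors and with no filter, and 1 to 4 when 1 library was left out. For ABTr1 against parental (0 called) it was 6 with the block, 4 with DESeq2, 2 with no filter and 0 to 1 with a library left out. For ABTr2 (0) it was 4, 4, 0 and 0 to 2, for ABTr3 (1) 5, 2, 1 and 0 to 2, and for ABTr4 (0) 9, 6, 1 and 0 to 2, with 2 by limma-voom. Differences among clones stayed at 0 called in all settings run. Of all tested genes, 16% were called in the mean of the clones without the block and 34.6% with it. For the other settings the shares of all genes are not given here, so those HOX counts have no background. The library numbers were taken as pairing the libraries from correlations in these same data, which the labels do not state. The block changed no other HOX call than those given. HOXB3 (0.21) ranged from -0.0099 without ABTr2 replicate 2 to 0.34, and HOXD8 (0.27) from -0.13 without PEO1 replicate 1 to 0.75. The log2 ratio of summed CPM, clones to parental, was 0.23 for HOXA (-0.13 to 0.62 with a library left out), 0.33 for HOXB (0.06 to 0.60), 0.09 for HOXC (-0.23 to 0.47) and 0.68 for HOXD (0.44 to 0.92). The cause of these changes was not tested. Depth limits the lowest tested genes most: HOXD3 rested on 4 parental reads and HOXA6 on 7.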
